A study of Mus musculus with 6 samples.

Results

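Accessible chromatin was examined at the genes of the AMPA receptors (Gria1 to Gria4) and the kainate receptors (Grik1 to Grik5), 9 genes in all. A region belonged to a gene when it overlapped the gene's RefSeq bounds (mouse build mm10, GRCm38.p6) or the 20 kb on either side. This gave 467 of the 193148 regions of the series, 182 at AMPA and 285 at kainate receptor genes. No region was assigned to more than 1 of the 9 genes.

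The series measured open DNA by ATAC-seq, an assay in which a transposase cuts accessible chromatin, in sorted nuclei of the mouse ventral tegmental area, a midbrain centre of reward, to ask what lowering Ogt does to chromatin in its dopaminergic neurons. Ogt encodes the enzyme that puts O-GlcNAc sugars on nuclear and cytoplasmic proteins. The knockdown group was Ogtflox+/Y (3 libraries), read here as mice carrying the floxed allele, and the control group was Ogtflox-/Y (3 libraries). Mice of both groups received 2 viral vectors in this brain region: AAV-TH-Cre, which carries Cre recombinase and is named for tyrosine hydroxylase, and AAV-DIO-H2B-EGFP, which labels nuclei green where Cre is active. Green nuclei were collected. The controls therefore shared the surgery, both vectors and the Cre, and Ogt could be cut only in cells that took up and used the Cre vector. Neither the labels nor the design text used here give the age of the mice, the time after injection or the number of mice behind a library. The p-values thus cover only the variation among these libraries, which could be technical. The title of knockdown replicate 1 says Ogtflox-/Y and its genotype label Ogtflox+/Y; the genotype label was followed. Grouped by title instead, edgeR called 0 regions in the whole series (23047 at an unadjusted p under 0.05, 37 of them at these genes).

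AMPA receptors are glutamate-gated cation channels of 4 subunits that carry most fast excitatory transmission in the brain. GluA1 to GluA4, encoded by Gria1 to Gria4, mix in these channels, and edited GluA2 makes a channel nearly impermeable to calcium. Kainate receptors are built from GluK1 to GluK3 (Grik1 to Grik3), which can form channels alone, and GluK4 and GluK5 (Grik4 and Grik5), which need one of the first 3 as partner and raise the affinity for glutamate. They act both before and after the synapse and tune release and excitability. In midbrain dopaminergic neurons AMPA receptors receive the excitatory input that drives burst firing, and a switch to channels without GluA2 is a known form of plasticity there.

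Promoter sequences from RefSeq (GRCm38.p6) were matched by symbol for 6 of the 9 genes, Gria2, Gria4, Grik2, Grik3, Grik4 and Grik5. The 250 bases before the start are shown for 4 of them because the results below turn on their start sites: Gria2 and Grik4 have the start-site regions of highest total CPM that rose in each family (per kb, Grik5 was above Grik4), Grik5 rose most, and Grik3 was not called. They run 5′ to 3′ on the gene's strand, from chr3:80802836-80803085 (minus strand), chr4:125490446-125490695 (plus strand), chr9:42944372-42944621 (minus strand) and chr7:25072370-25072619 (minus strand). Capitals mark GGGCGG or its reverse complement, the core of the GC box that Sp1 family factors bind.
Gria2: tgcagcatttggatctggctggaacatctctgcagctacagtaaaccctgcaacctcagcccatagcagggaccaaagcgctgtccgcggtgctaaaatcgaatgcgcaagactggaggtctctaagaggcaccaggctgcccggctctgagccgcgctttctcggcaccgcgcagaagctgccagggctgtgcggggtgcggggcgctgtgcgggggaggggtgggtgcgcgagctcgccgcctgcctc
Grik3: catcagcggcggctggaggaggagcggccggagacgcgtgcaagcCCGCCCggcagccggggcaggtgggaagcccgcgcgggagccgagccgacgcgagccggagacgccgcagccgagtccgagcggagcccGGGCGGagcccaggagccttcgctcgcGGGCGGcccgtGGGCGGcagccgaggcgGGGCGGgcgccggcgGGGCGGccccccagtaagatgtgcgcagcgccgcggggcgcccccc
Grik4: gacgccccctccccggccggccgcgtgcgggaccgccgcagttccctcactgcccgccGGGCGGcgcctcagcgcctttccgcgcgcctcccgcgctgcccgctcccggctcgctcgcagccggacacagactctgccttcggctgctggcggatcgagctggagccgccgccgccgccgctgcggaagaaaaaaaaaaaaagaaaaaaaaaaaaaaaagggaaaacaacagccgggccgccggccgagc
Grik5: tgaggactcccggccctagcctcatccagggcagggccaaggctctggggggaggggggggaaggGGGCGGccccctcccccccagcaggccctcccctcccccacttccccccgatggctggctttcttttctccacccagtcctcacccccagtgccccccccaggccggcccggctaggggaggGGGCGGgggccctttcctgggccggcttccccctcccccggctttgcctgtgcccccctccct
In the full 300-base windows, which end 50 bases after the start, Grik3 had 7 such matches, Grik4 had 2 and Grik5 had 2, and Gria2, Gria4 and Grik2 had none of these letters. The motif was present in 46.2% of the 21230 promoters of the same length. None of the 6 windows held TTCNNNGAA (STAT, in 7.69% of promoters), TGACGTCA (CRE, 2.24%), TGANTCA (AP-1, 6.99%), AAAGGTCA (NR4A, 1.30%), GCGCATGCG (NRF1, 2.35%) or TTCAGCACC (left part of the REST element, 0.415%), each searched on both strands. The letters of no motif can be matched inside those of another. GC content ran from 59.7% in Gria4 to 82.0% in Grik3, against a median of 56.3% over all promoters. The number of CpG dinucleotides ran from 10 in Grik5 to 50 in Grik3, against a median of 13.0. The windows of Gria2, Grik2, Grik3 and Grik4 overlapped the most accessible start-site region of the gene. Those of Gria4 and Grik5 lay 306 and 403 bp from it.

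With TMM scaling, which takes most regions as unchanged between libraries, start sites of the receptor genes were called higher in knockdown and never lower. A region within 1000 bp of a RefSeq start was called a start-site region. For Gria1, Gria3 and Grik1, whose strand was not given, either end of the gene counted, and such regions lay at only 1 end of each. Of the 14 start-site regions, 9 were called higher and 0 lower, where "called" means a Benjamini-Hochberg adjusted p under 0.05 in edgeR's quasi-likelihood test over all regions. All 14 log2 fold changes, given throughout as knockdown over control, were above 0. Knockdown libraries were all above control libraries at 11 of the 14 and overlapped them at 3. Between 6 and 9 of the 14 were called higher when 1 library was left out, with 9 without knockdown replicate 1, and 8 by DESeq2, which called 30.1% of all start sites higher and 3.74% lower. At start sites of all protein-coding genes 36.7% were called higher and 5.31% lower, and knockdown libraries were all above control at 46.3% and all below at 9.19%. The median log2 fold change was 0.40 over the 14 regions and 0.25 over all start sites. These are bulk libraries, so more nuclei with an open site and a more open site in each nucleus cannot be told apart.

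**Figure D1:**
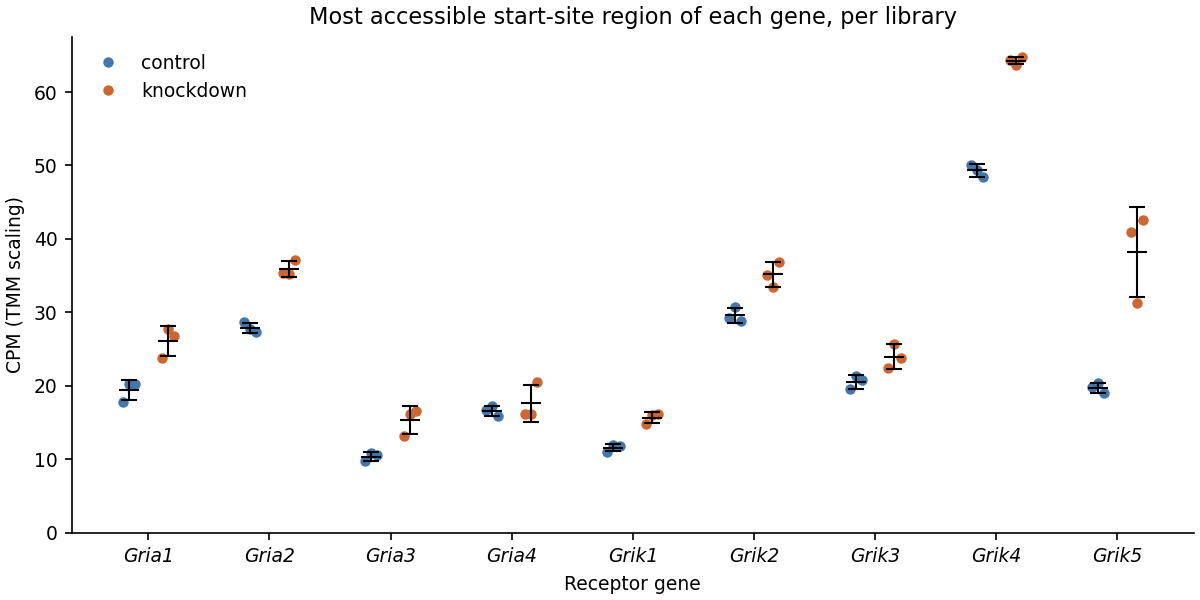
Level in CPM (TMM scaling of reads in regions; linear axis from 0) of the most accessible start-site region of each gene; points are libraries, bars are mean ± SD of 3. Knockdown points sit above all control points in 8 of the 9 genes, and Gria4 is the gene where they overlap. Weaker start-site regions are not shown. Over all 14 start-site regions of these genes, knockdown libraries are all above control at 11 and all below at 0. At start sites of all protein-coding genes, they are all above at 46.3% and all below at 9.19%.

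Among AMPA receptor genes the start sites of Gria1, Gria2 and Gria3 rose, and of Gria4 only the region nearer to its annotated start. Levels are CPM, counts scaled to reads in regions with TMM, for control replicates 1 to 3 and then knockdown replicates 1 to 3. Gria1 encodes GluA1, the subunit that is inserted into synapses with activity. Its start-site region (chr11:57011036-57011976) had 17.8, 20.2 and 20.3 CPM in control and 23.9, 27.7 and 26.8 CPM in knockdown. The groups did not overlap, and the log2 fold change was 0.42 (SE 0.11, adjusted p = 0.0074, edgeR).

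Gria2 encodes GluA2, the subunit that sets calcium permeability. Its start-site region (chr3:80802637-80803037) had 28.7, 27.7 and 27.3 CPM in control and 35.4, 35.2 and 37.1 CPM in knockdown. Each group was tight and the lowest knockdown library was well above the highest control library, with a log2 fold change of 0.37 (SE 0.094, adjusted p = 0.0078, edgeR). The next 2 regions of the gene, 1672 and 2333 bp away centre to centre and within its bounds, rose as well. Their means went from 14.8 to 19.0 CPM (log2 fold change 0.36) and from 8.41 to 13.0 CPM (0.61).

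Gria3, on chromosome X, encodes GluA3. Its main start-site region (chrX:41399992-41400762) had 9.72, 10.8 and 10.6 CPM in control and 13.2, 16.2 and 16.6 CPM in knockdown. The groups were apart, with knockdown replicate 1 the lowest of its group, and the log2 fold change was 0.56 (SE 0.13, adjusted p = 0.0046, edgeR). A second region at 41401256 rose by a log2 fold change of 0.62, a call lost without control replicate 1 or knockdown replicate 2 (adjusted p up to 0.060, edgeR). Another region, just past 1000 bp from the start at 41402659, had a log2 fold change of 0.66 (adjusted p = 0.030, edgeR).

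Gria4 encodes GluA4, a subunit with fast kinetics. Its most accessible region (chr9:4795479-4795879) had 16.7, 17.3 and 15.9 CPM in control and 16.2, 16.1 and 20.5 CPM in knockdown. Only knockdown replicate 3 was above control there, and the region was not called (log2 fold change 0.086, SE 0.12, adjusted p = 0.63, edgeR). The neighbouring region (chr9:4795972-4796372), which reaches into the promoter window, had 11.2, 15.1 and 15.4 CPM in control and 18.3, 19.0 and 20.7 CPM in knockdown. It rose (log2 fold change 0.47, SE 0.13, adjusted p = 0.013, edgeR), a call lost without control replicate 1, the lowest library (adjusted p = 0.051, edgeR).

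Among kainate receptor genes Grik1, Grik4 and Grik5 rose at a start site, and Grik2 and Grik3 were not called. Grik1 encodes GluK1. Its start-site region (chr16:88290030-88290430) had 11.0, 11.9 and 11.9 CPM in control and 14.8, 16.1 and 16.2 CPM in knockdown. The groups were apart (log2 fold change 0.43, SE 0.12, adjusted p = 0.013, edgeR), and the call was lost without control replicate 2 (adjusted p = 0.051, edgeR). A weaker region at 88290711 was called higher (log2 fold change 0.63, adjusted p = 0.041, edgeR), a call that held in 2 of the 6 fits that each left out 1 library.

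Grik2 encodes GluK2, the main pore-forming kainate subunit of the forebrain. Its start-site region (chr10:49788184-49788957) had 29.3, 30.7 and 28.8 CPM in control and 35.1, 33.5 and 36.9 CPM in knockdown. All knockdown libraries were above control, by a log2 fold change of 0.25 (SE 0.095) that did not pass (adjusted p = 0.058, edgeR). Its second region, at 49789722, overlapped between groups at a log2 fold change of 0.013. Grik3 encodes GluK3, a subunit with low affinity for glutamate. Its start-site region (chr4:125489940-125490602) had 19.5, 21.3 and 20.8 CPM in control and 22.4, 25.7 and 23.8 CPM in knockdown. Knockdown was again above control in all libraries without passing the test (log2 fold change 0.22, SE 0.10, adjusted p = 0.12, edgeR).

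Grik4 encodes GluK4, one of the partners that raise affinity. Its broad start-site region (chr9:42944004-42945094) had 50.1, 49.4 and 48.4 CPM in control and 64.3, 63.7 and 64.7 CPM in knockdown. This was the smallest spread relative to its level among the 9 genes, and the log2 fold change was 0.38 (SE 0.087, adjusted p = 0.0037, edgeR). A second region at 42943051 overlapped between groups (log2 fold change 0.30, adjusted p = 0.063, edgeR). Grik5 encodes GluK5, the other partner subunit. Its start-site region (chr7:25073022-25073422) had 19.8, 20.3 and 19.0 CPM in control and 40.9, 31.3 and 42.6 CPM in knockdown. It had the largest rise of the 14 start-site regions, and knockdown replicate 2 was the lowest of its group (log2 fold change 0.96, SE 0.12, adjusted p = 2.1e-05, edgeR). This call held in each of the 6 fits that left out 1 library and in DESeq2.

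How large the rise appeared depended on the scaling of the libraries. TMM put the median over all regions, as a log2 fold change, at -0.0065, scaling by reads in regions at -0.12 and scaling by library totals at -0.27. Start-site regions called higher numbered 9, 6 and 1 under these scalings, and 0 were called lower under each; with library totals Grik5 alone was called. With library totals 10 of the 14 had a log2 fold change above 0, and the main region of Gria4, both of Grik2 and that of Grik3 had one below 0. At start sites of all genes, reads in regions gave 26.6% called higher and 8.66% lower, and library totals 9.44% and 12.7%. Relative to the median of all regions, all 14 were higher under each of the 3 scalings: Gria2 by 0.37, 0.37 and 0.37, and Grik5 by 0.97, 0.96 and 0.97. A change of scaling moves all regions by about the same amount, so this sameness follows from the calculation and is no separate support. With TMM the median of all start sites, 0.25, was itself above the median of all regions.

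**Figure D2:**
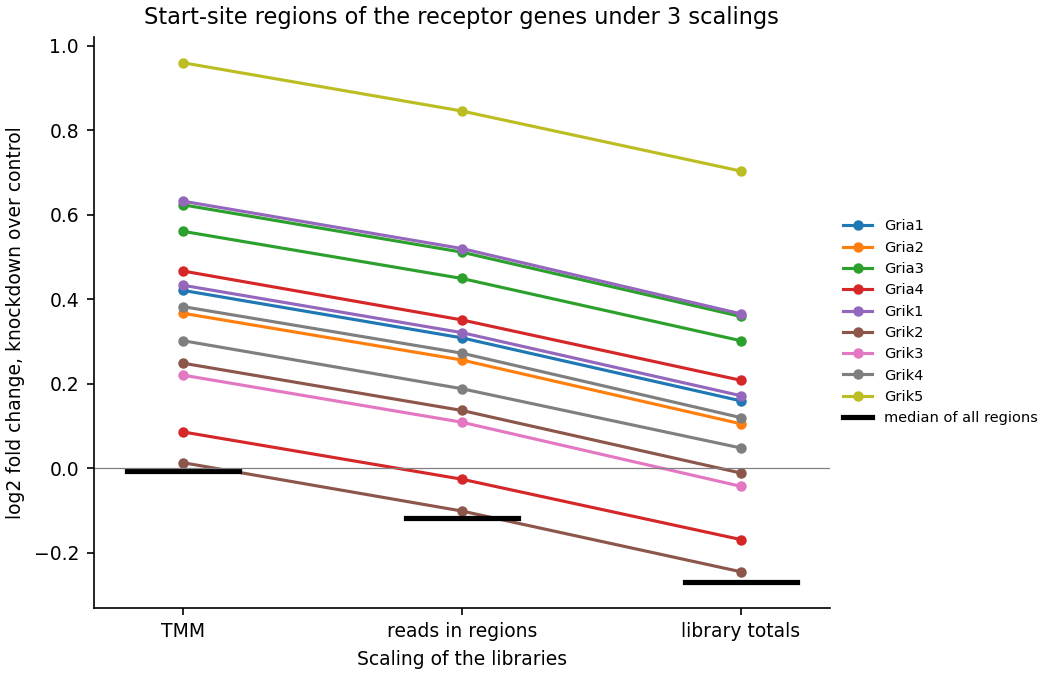
Log2 fold change (knockdown over control) of the 14 start-site regions under 3 scalings; lines join the same region, colours are genes and black bars are the median of all regions. Lines and median shift down together from TMM to library totals, because a change of scaling moves all regions by about the same amount. Every line therefore stays above the bar.

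Compared per kilobase of region, Gria2 had the highest start-site level in control, at 69.6 ± 1.80 CPM per kb (SD, n = 3). Grik5 followed at 49.1 ± 1.72, Grik4 at 45.2 ± 0.771, Gria4 at 41.5 ± 1.74 and Grik2 at 38.2 ± 1.28 CPM per kb. Below them came Grik3 at 31.0 ± 1.39, Grik1 at 28.9 ± 1.27, Gria1 at 20.7 ± 1.48 and Gria3 at 13.5 ± 0.750 CPM per kb. The ranges of neighbours in this order overlapped for Gria4 and Grik2 and for Grik3 and Grik1, and were apart for the others. In knockdown Grik5 stood first at 95.4 ± 15.3 and Gria2 was next at 89.6 ± 2.58 CPM per kb (SD, n = 3), with the lowest Grik5 library at 78.0. The order depends on the measure, as region widths differ. By CPM of the whole region in control, Grik4 (49.3 CPM, 1091 bp wide) was above Gria2 (27.9 CPM, 401 bp wide). Levels were not adjusted for gene copies, and Gria3 lies on chromosome X in mice whose genotype labels carry a Y. These levels describe open DNA and not the amount of transcript or protein.

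Away from start sites 42 of 452 regions of the receptor genes were called higher and 40 lower, a balance that depended on the scaling (27 higher and 69 lower under reads in regions, 12 higher and 103 lower under library totals). Over all 466 tested regions, 51 (10.9%) were called higher and 40 (8.58%) lower, against 15.4% and 12.7% of all regions. Gains were 56.0% of these calls with TMM, 32.4% with reads in regions (33 higher, 69 lower) and 11.2% with library totals (13 higher, 103 lower). In these 2 scalings 11.8% and 17.4%, and 6.82% and 24.6%, of all regions were called higher and lower. One Grik1 region had too few reads to be tested. At AMPA receptor genes 18 of 182 were higher and 12 lower, and at kainate receptor genes 33 of 284 were higher and 28 lower. Within gene bodies 35 of 410 (8.54%) were higher and 34 (8.29%) lower, against 11.2% and 13.7% of gene-body regions of all genes. In the flanks, up to 20 kb outside the bounds, 7 of 42 were higher and 6 lower, against 14.3% and 17.3%. The median log2 fold change over all 466 was -0.05. Knockdown libraries were all above control at 87 and all below at 88 regions, against 21.0% and 21.2% of all regions.

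**Figure D3:**
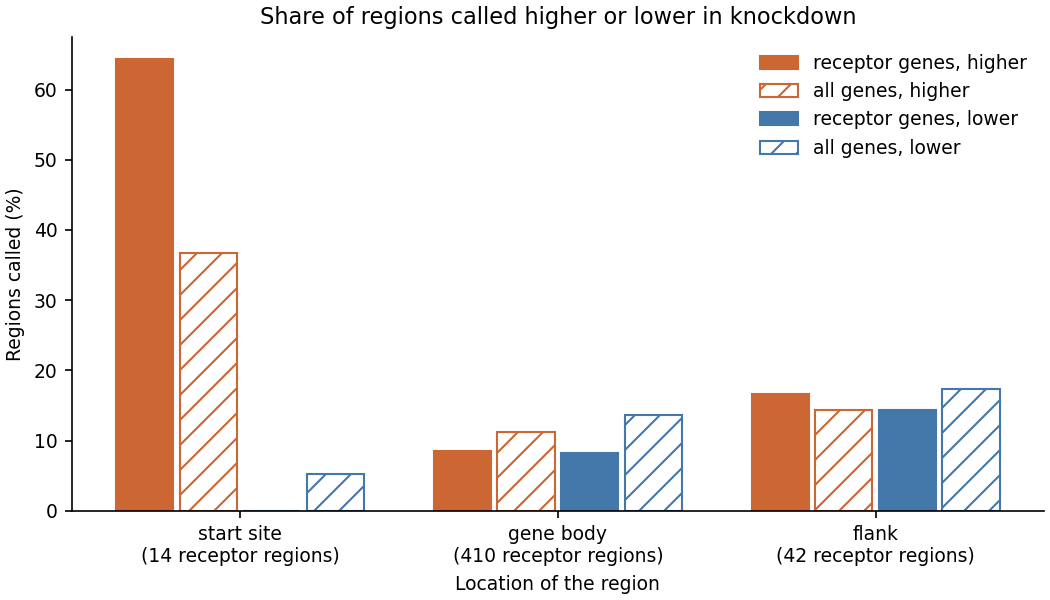
Share of regions called higher (orange) or lower (blue) in knockdown, in percent, for the receptor genes (filled bars) and for all protein-coding genes (hatched bars), by location. With TMM, the receptor genes have 64.3% of 14 start-site regions called higher and none lower. At start sites of all protein-coding genes the shares are 36.7% and 5.31%. In gene bodies and flanks of the receptor genes about as many regions are called higher as lower, a balance that depends on the scaling.

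Regions away from start sites were weak, with a median control level of 2.08 CPM against 18.0 CPM at the start-site regions, and 3 reads equal 0.117 to 0.237 CPM depending on the library. Of the 91 calls, 13 higher and 15 lower were at least 2-fold. In each of the 6 fits that left out 1 library 35 of the 91 were called (22 higher, 13 lower), and 50 were also called by DESeq2. The matching shares over all called regions are not given here. These counts therefore do not tell whether calls at the receptor genes were larger or more stable than calls in general. The receptor genes had 29 regions higher without control replicate 1 (12.1% of all regions were). Without control replicate 2 they had 31 higher and 17 lower (9.94% and 7.64% of all), and without knockdown replicate 1 they had 26 lower (9.15% of all). DESeq2 gave 32 higher and 18 lower (10.9% and 7.69% of all).

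**Figure D4:**
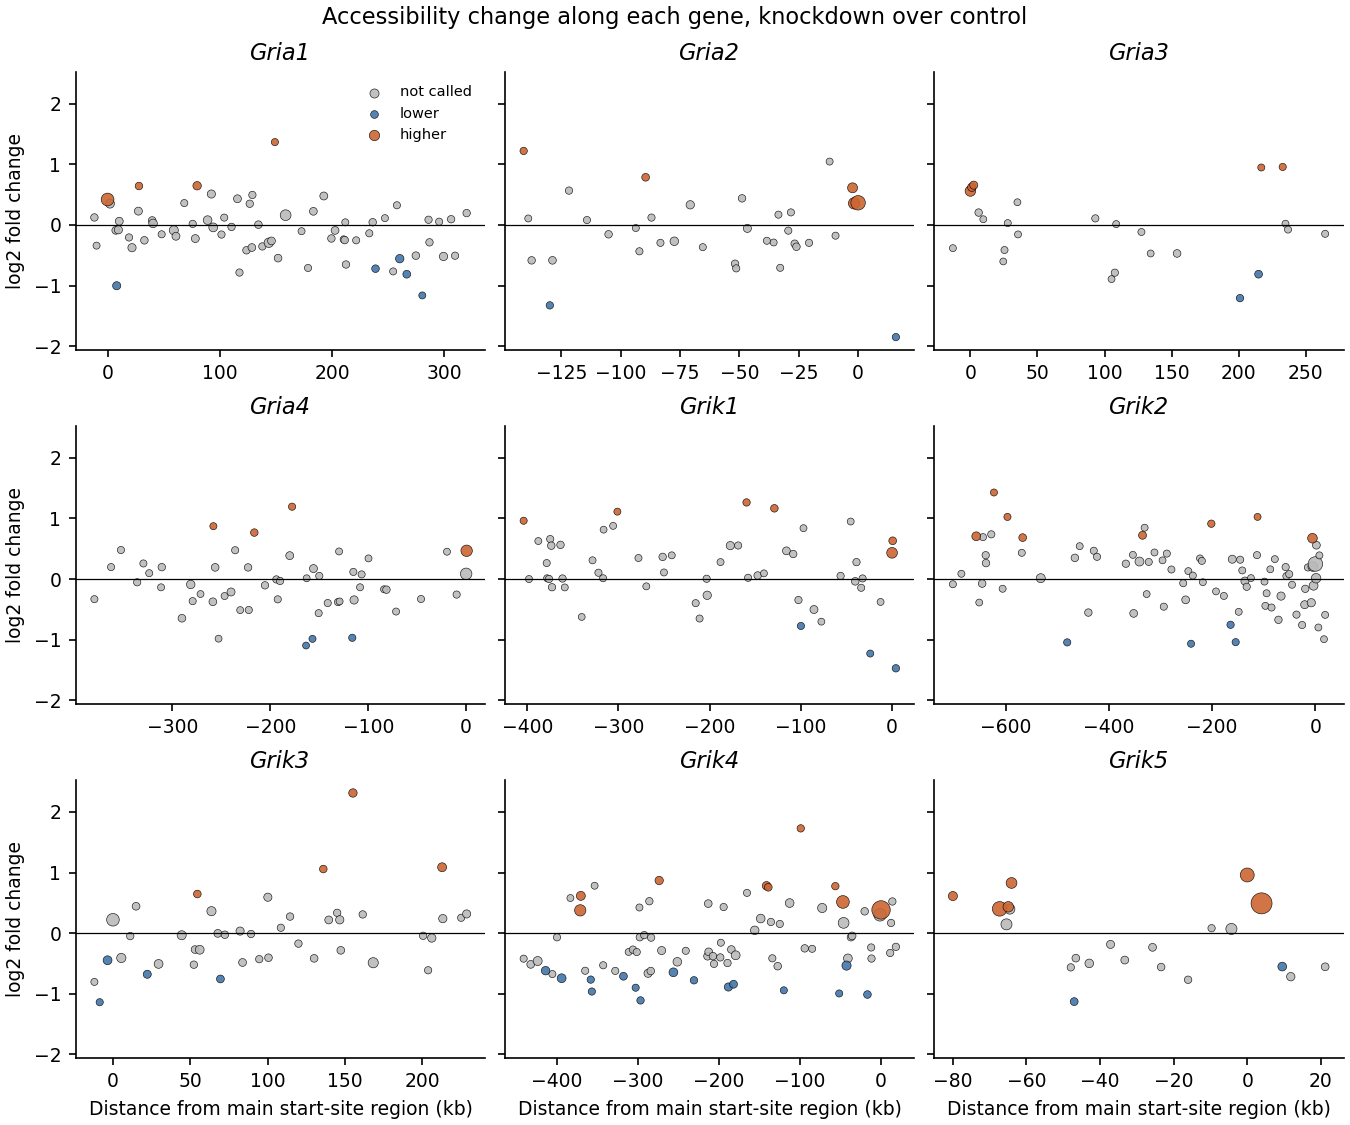
Log2 fold change (knockdown over control) of each tested region against its distance in kb from the gene's most accessible start-site region, along the chromosome; orange is called higher, blue called lower, grey not called, and larger points have higher CPM. The large points near 0 kb lie above 0, while Grik4 has 15 blue points spread over its body and Grik3 has the highest point, at 2.31.

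The counts per gene below stand beside 15.4% called higher and 12.7% lower over all regions. Among AMPA receptor genes Gria1 had 4 regions higher (5.80%) and 5 lower (7.25%) of 69. Inside the gene, chr11:57160477-57160877 had 0.683, 0.858 and 1.04 CPM in control and 2.04, 2.69 and 2.12 CPM in knockdown, a clear separation at a low level (log2 fold change 1.37, SE 0.29, adjusted p = 0.0021, edgeR). Farther along, chr11:57291851-57292251 fell from 1.59, 1.44 and 1.75 CPM to 0.680, 0.554 and 0.863 CPM (log2 fold change -1.16, adjusted p = 0.012, edgeR), which DESeq2 did not call (adjusted p = 0.065). A region 8127 bp from the main start-site region, at 57019433, fell by 1.00 on the log2 scale, with all knockdown libraries below control.

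Gria2 had 5 regions higher (14.3%) and 2 lower (5.71%) of 35, and 3 of these calls lay in the flanks. Beyond the far end, chr3:80661761-80662161 rose from 1.52, 0.819 and 1.47 CPM to 2.87, 2.77 and 2.99 CPM (log2 fold change 1.22, adjusted p = 0.0033, edgeR). Nearer to the gene, the region at 80672791 fell from 3.16 ± 0.41 to 1.24 ± 0.12 CPM (mean ± SD of 3 libraries; log2 fold change -1.33). On the start side, chr3:80818555-80818955 had 4.48, 3.12 and 2.08 CPM in control and 0.604, 0.317 and 1.59 CPM in knockdown. This was the largest loss at any of the 9 genes (log2 fold change -1.85, SE 0.40, adjusted p = 0.0024, edgeR), and it held in each fit that left out 1 library and in DESeq2.

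Gria3 had 5 higher and 2 lower of 25. The loss at chrX:41601068-41601468, from 3.95, 2.77 and 2.93 CPM to 1.74, 0.950 and 1.39 CPM, had a log2 fold change of -1.21 (adjusted p = 0.0034, edgeR). The largest gain, at 41632881 (log2 fold change 0.96, adjusted p = 0.017, edgeR), was no longer called without control replicate 1, control replicate 3 or knockdown replicate 2, or in DESeq2 (adjusted p = 0.069). Gria4 had 4 higher (7.55%) and 3 lower (5.66%) of 53. The gain at chr9:4617680-4618080, from 1.67, 0.663 and 0.946 CPM to 2.34, 2.53 and 2.19 CPM, had a log2 fold change of 1.19 (adjusted p = 0.0089, edgeR), lost without control replicate 2 (adjusted p = 0.073, edgeR). The largest loss, at 4631959, was borderline (log2 fold change -1.10, adjusted p = 0.049, edgeR), and 4 of the 6 fits that left out 1 library did not call it.

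Grik1 had 6 higher (11.1%) and 3 lower (5.56%) of 54 tested. In the gene, chr16:88130479-88130879 rose from 1.29, 1.25 and 1.28 CPM to 3.25, 3.17 and 2.79 CPM (log2 fold change 1.26, SE 0.24, adjusted p = 0.0011, edgeR). The control libraries were nearly equal there and the knockdown libraries all more than 2-fold higher. Outside the gene, 4192 bp from the main start-site region, chr16:88294222-88294622 fell from 2.96, 3.90 and 3.50 CPM to 1.59, 1.27 and 0.929 CPM (log2 fold change -1.47, SE 0.26, adjusted p = 0.00066, edgeR). The called loss and the called gain at the start site were thus neighbours in sequence with opposite signs.

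Grik2 had 8 higher (9.52%) and 4 lower (4.76%) of 84, all within the gene. The largest gain, at chr10:49165705-49166105, went from 0.455, 0.624 and 0.946 CPM to 1.43, 2.37 and 1.86 CPM (log2 fold change 1.43, adjusted p = 0.0044, edgeR). The largest loss, at 49547523 (log2 fold change -1.07, adjusted p = 0.016, edgeR), was no longer called without control replicate 2, knockdown replicate 1 or knockdown replicate 3, or in DESeq2 (adjusted p = 0.075). Although neither start-site region was called, a region 5669 bp away at 49782701 rose from 7.33 ± 0.51 to 11.7 ± 0.20 CPM (mean ± SD of 3 libraries; log2 fold change 0.67, adjusted p = 0.0022, edgeR).

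Grik3 had 4 higher (9.30%) and 4 lower (9.30%) of 43. Its region at chr4:125645220-125645620 had 2.05, 1.87 and 1.47 CPM in control and 15.6, 3.25 and 7.70 CPM in knockdown. The knockdown libraries disagreed by several fold, with replicate 1 highest, but all were above control. The log2 fold change of 2.31 (SE 0.38, adjusted p = 0.00033, edgeR) was the largest at any of the 9 genes; without knockdown replicate 1 it was 1.65 (adjusted p = 0.00069, edgeR). The largest loss, at chr4:125481510-125481910, outside the gene, went from 2.35, 2.69 and 1.70 CPM to 0.453, 0.950 and 1.59 CPM (log2 fold change -1.14, adjusted p = 0.020, edgeR). It was no longer called without control replicate 1, control replicate 2 or knockdown replicate 1.

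Grik4 had the most calls, 9 higher and 15 lower of 81, and it was the gene with the largest share called lower (18.5%, against 12.7% of all regions). Its share called higher was 11.1%, against 15.4% of all regions. All 15 losses lay in the gene body, at log2 fold changes of -1.11 to -0.54. The largest, at chr9:42647586-42647986, went from 2.81, 3.51 and 2.84 CPM to 1.36, 1.58 and 1.33 CPM (log2 fold change -1.11, SE 0.25, adjusted p = 0.0032, edgeR). Against these, chr9:42845276-42845676 rose from 0.911, 1.13 and 0.946 CPM to 3.62, 3.72 and 2.79 CPM (log2 fold change 1.73, SE 0.26, adjusted p = 0.00016, edgeR). The strongest region of the gene body, at 42897311, rose from 18.7 ± 0.95 to 26.7 ± 0.18 CPM (mean ± SD of 3 libraries; log2 fold change 0.51). The groups overlapped at 3 of the regions called in Grik4.

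Grik5, the shortest of the kainate genes here, had 6 higher (27.3%) and 2 lower (9.09%) of 22. Of these calls, 4 lay within the bounds of a neighbouring gene. Its most accessible region (chr7:25076911-25077311), in the bounds of the zinc finger gene Zfp574, had 68.9, 57.9 and 63.9 CPM in control and 97.3, 78.0 and 92.2 CPM in knockdown (log2 fold change 0.49, SE 0.10, adjusted p = 0.0019, edgeR). A loss at 25082532 (log2 fold change -0.55) also lay within Zfp574. Which gene such regions serve was not tested. Within the bounds of Grik5 the start-site gain was joined by a loss at chr7:25026032-25026432, from 5.62, 5.07 and 3.93 CPM to 2.49, 2.22 and 1.93 CPM (log2 fold change -1.13, SE 0.23, adjusted p = 0.0015, edgeR). Over all 9 genes, 5 regions lay within another gene and 21 within 20 kb of one.

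When reads were summed over all regions of a gene, 1 of the 9 receptor genes passed. Of 18419 genes tested in this way 17.9% were called higher and 19.6% lower. The sum for Grik5 was 249.6, 244.2 and 243.1 CPM in control and 269.0, 262.8 and 297.0 CPM in knockdown. The groups did not overlap, with knockdown replicate 3 highest (log2 fold change 0.17, SE 0.062, adjusted p = 0.038, edgeR). The call was lost without control replicate 1, control replicate 2, control replicate 3 or knockdown replicate 3 (adjusted p up to 0.13, edgeR), under scaling by library totals (0.05, adjusted p = 0.81, edgeR) and with regions inside the gene bounds alone (0.005, adjusted p = 0.97, edgeR).

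The sums of the other 8 genes were not called. The log2 fold change was -0.17 for Gria1 (SE 0.076, adjusted p = 0.091, edgeR), -0.03 for Gria2, -0.03 for Gria3 and -0.12 for Gria4. It was 0.06 for Grik1, -0.03 for Grik2, -0.11 for Grik3 and -0.12 for Grik4, with an adjusted p of 0.15 to 0.78 in edgeR for all but Gria1. The groups overlapped in all 8. Gria1 was called lower without knockdown replicate 3 (adjusted p = 0.033, edgeR) and Gria4 without control replicate 1 (0.036). Gria1 thus combined a rise at its start site with a sum below control in the mean.

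By the root mean square difference of centred log2 sums over the 6 libraries, with 39 genes compared, the gene most like Gria1 was Cacng2 (0.020), and Grik3 and Grik4 were each other's nearest (0.025). The nearest gene was Adar for Gria2 (0.047) and Grik2 (0.041), Grik2 for Gria3 (0.043), Grip1 for Gria4 (0.038), Cacng3 for Grik1 (0.036) and Cpt1c for Grik5 (0.037). The second nearest was Grik4 for Gria1 (0.051) and Gria4 (0.055), Gria1 for Grik4 (0.051), Nsf for Gria2 (0.055) and Grik3 (0.049) and Gria3 for Grik2 (0.043). For Gria3 and Grik5 it was Nptx1 (0.044) and Cnih2 (0.060). These values describe 6 libraries that share depth and composition.

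Genes of proteins that assemble, escort, anchor or edit these receptors were described from reads summed in the same way. Of 31 such genes in 4 lists, 1 was called higher and 12 lower, against 17.9% and 19.6% of all genes. The count of losses was 12 under library totals, where 24.9% of all genes were lower, and 10 under reads in regions, where 16.5% were. At single regions 84 of 712 (11.8%) were higher and 127 (17.8%) lower, against 15.4% and 12.7% of all regions. At their start sites 15 of 62 (24.2%) were higher and 6 (9.68%) lower, against 36.7% and 5.31% at the start sites of all protein-coding genes.

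Auxiliary subunits of AMPA receptors control gating and delivery to the synapse. Of their 12 genes, 0 were higher and 7 lower, against 17.9% and 19.6% of all genes. The median log2 fold change of the 12 was -0.24 (0.0009 over all genes). The largest loss was that of Cnih3, a cornichon protein that slows channel closing, with 124.1, 116.7 and 112.7 CPM in control and 77.7, 77.8 and 84.0 CPM in knockdown. All 29 of its regions together gave a log2 fold change of -0.56 (SE 0.059, adjusted p = 1.0e-05, edgeR), with the groups far apart. Cacng7, a transmembrane AMPA receptor regulatory protein, went from 86.9, 88.6 and 92.1 CPM to 61.9, 57.1 and 70.1 CPM (log2 fold change -0.50, SE 0.070, adjusted p = 9.3e-05, edgeR). The other 5 were Shisa9, Gsg1l, Cacng5, Cacng4 and Cacng2, at -0.49 to -0.20, and only Cacng2 had overlapping groups. Each of the 7 but Cacng2 was called in all 6 fits that left out 1 library. Cacng2 was called in 3 of these fits and not under reads in regions (adjusted p = 0.064, edgeR). Its most accessible start-site region was called higher (log2 fold change 0.51, adjusted p = 0.0018, edgeR). Those of Cacng7 and Gsg1l were called lower (-1.09 and -0.49), and those of Cnih3, Shisa9, Cacng5 and Cacng4 were not called. The remaining 5 (Cacng3, Cacng8, Cnih2, Shisa6 and Shisa7) ran from -0.06 to 0.07 and were not called. At the start sites of the 12 genes 2 of 19 regions (10.5%) were higher and 3 (15.8%) lower, beside the same 36.7% and 5.31%. Cacng7 and Cacng8 shared 2 of their 11 regions each.

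**Figure D5:**
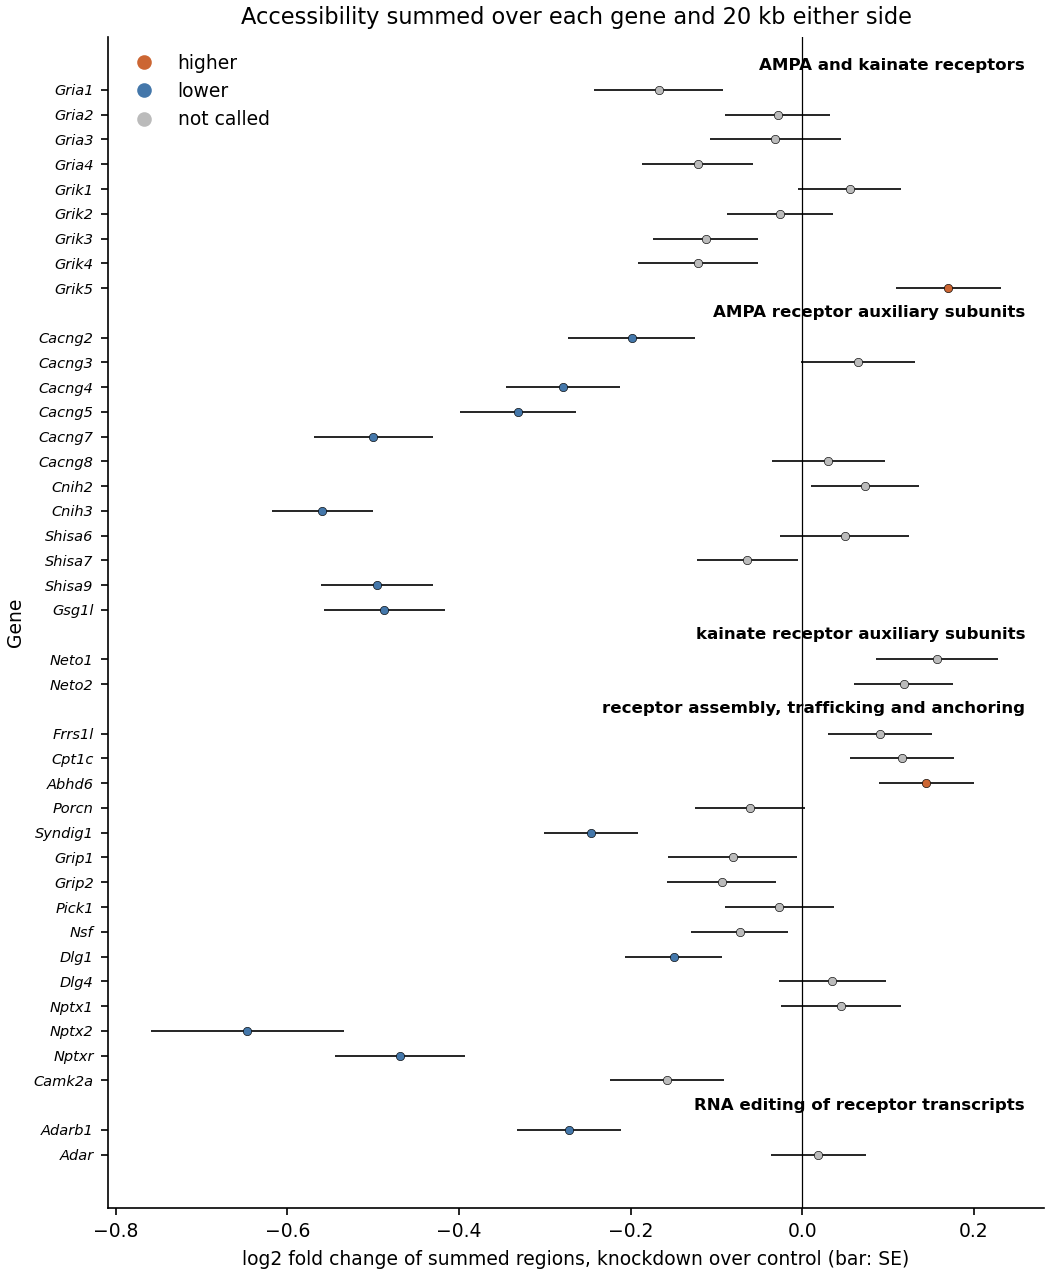
Log2 fold change (knockdown over control, with SE) of reads summed over each gene and the 20 kb on either side, by list; orange is called higher, blue called lower, grey not called. The 9 receptor genes lie between -0.17 and 0.17, and 7 of 12 AMPA receptor auxiliary genes are called lower, down to -0.56 for Cnih3. Of all genes tested, 19.6% are called lower.

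Neto1 and Neto2, the auxiliary subunits of kainate receptors, were not called in sum, at log2 fold changes of 0.16 and 0.12 (adjusted p = 0.091 and 0.12, edgeR), and 3 of their 4 start-site regions were called higher. Start sites of all protein-coding genes were called higher at 36.7% and lower at 5.31%. Of 15 genes of receptor assembly, trafficking and anchoring, 1 was higher and 4 lower, against 17.9% and 19.6% of all genes. At the start sites of these 15 genes, 6 of 33 regions (18.2%) were higher and 3 (9.09%) lower. Abhd6, which limits delivery of AMPA receptors to the surface, rose from 108.5, 98.2 and 103.7 CPM to 115.0, 114.5 and 113.1 CPM (log2 fold change 0.14, adjusted p = 0.048, edgeR). Of the 6 fits that left out 1 library, 1 called it, and DESeq2 and library totals did not. Nptx2, a secreted pentraxin that clusters AMPA receptors, fell from 25.3, 27.7 and 30.5 CPM to 17.0, 19.5 and 17.1 CPM (log2 fold change -0.65, SE 0.11, adjusted p = 0.00049, edgeR). Its membrane-bound relative Nptxr fell from 78.7, 80.4 and 70.3 CPM to 49.99, 55.1 and 60.5 CPM (log2 fold change -0.47, SE 0.076, adjusted p = 0.00028, edgeR). Syndig1 and Dlg1 were the other 2 called lower, at -0.25 and -0.15. Syndig1 was called in all 6 fits that left out 1 library and in DESeq2. Dlg1 (adjusted p = 0.046, edgeR) was called in 1 of these fits and not in DESeq2 (adjusted p = 0.074). It was called under library totals (adjusted p = 0.047, edgeR) and not under reads in regions (adjusted p = 0.11, edgeR).

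Adarb1, encoding the enzyme that edits the GluA2 pore codon, fell from 179.3, 186.1 and 180.9 CPM to 138.6, 151.1 and 162.7 CPM (log2 fold change -0.27, SE 0.061, adjusted p = 0.0027, edgeR). Its relative Adar was not called (0.02). The most accessible start-site region of Adarb1 was called higher, from a mean of 23.2 CPM in control to 30.1 CPM in knockdown. Its log2 fold change was 0.38 (adjusted p = 0.011, edgeR). Of the 6 start-site regions of these 2 genes, 4 (66.7%) were higher and 0 lower, against 36.7% and 5.31% over all start sites.

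Library totals ran from 34384319 to 66853563 reads and reads in regions from 12698758 to 24440507, which were 37.4% ± 0.809 of reads in control and 33.7% ± 3.08 in knockdown (SD, n = 3). Within the bounds of Ogt, the summed level was 19.6 to 24.8 CPM in control and 35.9 to 40.0 CPM in knockdown; no source used here gives the position of the floxed part, so this does not check the genotype labels. By start-site CPM per kb in control, Th ranked 1 of 14354 genes, where reads of the gene and of a vector named for it cannot be told apart, while the dopaminergic genes Slc6a3, Slc18a2 and Drd2 ranked 12654, 12337 and 10930. The receptor genes ranked from 4120 (Gria2) to 12227 (Gria3). Summed over marker lists, dopaminergic genes had 967 to 1471 CPM in control and 957 to 1083 in knockdown (1 of 10 lower, which was Th). The groups overlapped for Th, with 359, 843 and 563 CPM in control and 424, 355 and 319 CPM in knockdown. Of the 6 fits that left out 1 library, 4 called Th, and DESeq2 did not (adjusted p = 0.13). Without Th the other 9 had 607 to 710 CPM in control and 585 to 728 in knockdown. GABAergic genes had 246 to 324 CPM in control and 322 to 367 in knockdown (3 of 6 genes higher), and astrocyte genes 384 to 402 and 394 to 503 (2 of 8 higher). Glutamatergic genes had 210 to 225 and 158 to 190 CPM (1 of 5 higher, 2 lower), microglial genes 216 to 231 and 197 to 198 (4 of 7 lower), and oligodendrocyte genes 443 to 458 and 403 to 482 (3 of 9 higher, 1 lower). Over all genes 17.9% were called higher and 19.6% lower. At single regions 42.2% were called higher and 6.25% lower for astrocyte genes, and 33.9% and 3.23% for GABAergic genes. These shares were 25.0% and 14.3% for oligodendrocyte genes and 10.9% and 3.64% for dopaminergic genes. They were 10.8% and 24.3% for glutamatergic genes, 9.30% and 6.98% for microglial genes, and 15.4% and 12.7% over all regions. No list had a gene without reads in control replicate 1. The part of these differences in the receptor results was not tested.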

How the data were processed

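The 6 deposited tables hold 193148 common regions, 94.6% of them 401 bp wide. Their columns, per the file headers, are reads, RPKM and score. The deposited counts, whole numbers without normalization by the authors, were tested without change. The RPKM values, made by the authors from count, width and 1 total per library, gave the library totals. The deposited score is a rescaled count and was not tested. Per the submitters' processing notes the tools were FastQC, Trimmomatic, BWA, SAMtools 1.9, Picard and MACS2, with mm10; no source used here gives their roles, the counting program or any shift of reads for the transposase. Per the labels' protocols a general DNA library kit was used.

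All regions were tested with edgeR 4.0.16 (R 4.3.3): quasi-likelihood test, group as the only term, TMM, filterByExpr (minimum count 10), Benjamini-Hochberg adjustment over 191693 regions, threshold 0.05. SE is the log2 fold change divided by the square root of F. Counts summed per gene were tested likewise over 18419 protein-coding genes. The script was tested on simulated data. Alternatives were DESeq2 1.42.0 (Wald test), no filter on low counts, library totals or reads in regions without TMM, grouping by title, each library left out, gene bounds extended by 0 bp or 100 kb and start sites of 3000 bp.

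Gene bounds came from a RefSeq table for GRCm38.p6 without exons, so exons and introns were not told apart. All 76 genes of the 10 lists matched by symbol. Some related and neighbouring genes are not reported here. The receptor genes and the lists were chosen with earlier results of these data known. Named for each receptor gene are its most accessible region, its most accessible start-site region and its called region of largest change in each direction. Named for each related list are at most the 2 called genes of largest change per direction, and for likeness the 2 nearest genes. Other regions and genes named were chosen after their values were seen. Depth sets precision: 3 reads equal 0.117 to 0.237 CPM, counting error only.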

Additional observations from a re-analysis of the deposited data

How the results depend on the processing

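No paired analysis was possible because the libraries of the 2 groups share no number in their titles and the labels give no pairing. Grouping by title called 0 regions, 0 at receptor genes, 0 receptor genes and 0 related genes in edgeR. Library totals gave 13072 regions higher and 47194 lower in all, 13 and 103 at receptor genes, 1 start-site region higher, 0 receptor genes and 0 related genes higher. Reads in regions gave 33 and 69 at receptor genes and 2 related genes higher. DESeq2 gave 14862 regions lower in all, 32 higher and 18 lower at receptor genes, and 0 related genes higher. The cause of these shifts was not tested. With each library left out in turn, regions numbered 19100 to 29969 higher and 14676 to 25007 lower, those at receptor genes 29 to 50 and 17 to 45, receptor genes 0 to 1 in each direction and related genes higher 0 to 1. With gene bounds extended by 0 bp no receptor gene was called (0 higher). No result named here changed direction among those called. Counts without the filter on low counts were within 1.5 times the main ones. Weak regions rest on few reads, and a difference there can be missed at this depth.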

Other observations

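Among the 51 regions called higher at the receptor genes, the lowest of the 3 knockdown values came from replicate 1 at 21 (41.2%), from replicate 2 at 19 (37.3%) and from replicate 3 at 11 (21.6%). Over all 29579 regions called higher these shares were 26.0%, 49.4% and 24.5%. Knockdown replicate 3 was the highest of its group at 52.9% of the regions at receptor genes and at 34.2% of all regions called higher.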
